A study of Mus musculus with 27 samples.

Results

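Pax2, Pax8, Lhx1, Emx2, Hnf4a, Pou3f3, Gata3 and Tfcp2l1 are 8 transcription factor genes of the kidney tubule epithelium and its precursors. They were taken by symbol from a table of TPM, a share of all transcripts corrected for gene length, that listed 24953 genes, and all 8 symbols were found. Of the 8, 6 reached 1 TPM in at least 1 library, and Hnf4a and Gata3 were under 1 TPM in every library.

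The libraries came from mK4 cells, a mouse line derived from embryonic metanephric mesenchyme, the tissue that gives rise to the nephron. Poly(A) RNA was sequenced from 3 control, 3 Runx1KO and 3 ZebDKO cultures, and chromatin was profiled by ATAC-seq and by Runx1 and Runx2 ChIP-seq in control and Runx1KO cells. Control cells were the mK4 line itself. Runx1KO cells carried a CRISPR-Cas9 deletion of Runx1 exon 3, which holds the start codon used in mK4, and ZebDKO cells carried deletions of Zeb1 exon 2 and Zeb2 exon 1. Both knockout lines were grown from picked clones in the same serum-containing medium as control cells. How many clones of each genotype gave the cultures is not given in the sources used here, so a clone's own traits cannot be told apart from those of its genotype.

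In the developing kidney, mesenchyme that condenses around the ureteric bud turns into an epithelial renal vesicle, which is then patterned along its length into glomerulus, proximal tubule, loop of Henle and distal tubule. Pax2 and Pax8 are paired-box factors that act from the earliest steps of both the bud and the nephron, and Lhx1 is a LIM-homeodomain factor needed in the renal vesicle. Emx2 is a homeobox factor of the ureteric bud. Hnf4a, a nuclear receptor, drives proximal tubule maturation, Pou3f3 (Brn1) is a POU factor of the loop of Henle and distal tubule, and Gata3 and Tfcp2l1 are factors of the nephric and collecting ducts.

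Regions that carry the chromatin results are shown first, as mouse mm9 reference sequence read 5′ to 3′ on the strand of the gene. Capitals mark the Runx core TGTGGT or TGCGGT and the Zeb-type E-box CAGGTG or CAGGTA, each searched on both strands, so a match in reverse shows the reverse complement of these letters. No match overlapped another. The first was the Runx1-dependent ATAC-seq region (open in control cells, not in Runx1KO cells) nearest to Pou3f3, the member with the largest fall, shown as the middle 300 bases.
Pou3f3 upstream Runx1-dependent region, chr1:42752363-42752662, forward strand: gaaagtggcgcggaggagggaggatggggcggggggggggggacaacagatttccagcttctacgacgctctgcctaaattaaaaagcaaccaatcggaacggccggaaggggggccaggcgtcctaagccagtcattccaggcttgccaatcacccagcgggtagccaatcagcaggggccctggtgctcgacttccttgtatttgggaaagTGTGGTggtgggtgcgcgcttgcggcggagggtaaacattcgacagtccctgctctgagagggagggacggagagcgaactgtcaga
The next windows of 200 bases lie at Runx1 ChIP-seq peaks of control cells near 5 members whose RNA was above 1 TPM in every library. The Tfcp2l1 window was moved upstream by 81 bases and the Lhx1 window by 1 base to leave out untranslated exon sequence. For the same reason the Pax2 window is not at the peak nearest to the start, 1.01 kb inside the gene. It lies at the peak 5.18 kb upstream.
Pax8 intronic Runx1 peak, chr2:24308850-24309049, reverse strand: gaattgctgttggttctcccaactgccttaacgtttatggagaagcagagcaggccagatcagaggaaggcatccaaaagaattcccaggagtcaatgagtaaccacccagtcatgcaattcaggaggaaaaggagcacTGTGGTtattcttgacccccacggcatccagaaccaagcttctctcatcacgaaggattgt
Pax2 upstream Runx1 peak, chr19:44825262-44825461, forward strand: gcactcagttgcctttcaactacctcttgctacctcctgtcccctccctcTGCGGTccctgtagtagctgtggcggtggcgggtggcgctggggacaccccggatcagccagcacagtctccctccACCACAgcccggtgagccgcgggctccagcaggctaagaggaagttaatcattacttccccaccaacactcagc
Emx2 upstream Runx1 peak, chr19:59532592-59532791, forward strand: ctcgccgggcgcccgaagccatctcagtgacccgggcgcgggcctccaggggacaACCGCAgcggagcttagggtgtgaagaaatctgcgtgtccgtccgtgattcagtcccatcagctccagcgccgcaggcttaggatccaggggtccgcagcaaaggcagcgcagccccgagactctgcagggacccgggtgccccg
Tfcp2l1 promoter Runx1 peak, chr1:120524322-120524521, forward strand: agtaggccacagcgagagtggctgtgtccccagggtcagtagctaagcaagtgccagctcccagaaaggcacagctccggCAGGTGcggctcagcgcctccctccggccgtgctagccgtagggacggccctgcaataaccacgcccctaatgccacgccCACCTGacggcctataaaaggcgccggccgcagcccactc
Lhx1 Runx1 peak, chr11:84336214-84336413, reverse strand: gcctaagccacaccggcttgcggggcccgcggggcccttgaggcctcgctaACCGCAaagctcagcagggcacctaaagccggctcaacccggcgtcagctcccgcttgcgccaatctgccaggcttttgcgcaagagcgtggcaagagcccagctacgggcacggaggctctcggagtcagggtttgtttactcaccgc
The last pair are the middle 300 bases of the Runx1KO-induced ATAC-seq regions (open in Runx1KO cells, not in control cells) nearest to Pax2 and Pax8, the members whose RNA was higher in Runx1KO cells.
Pax2 upstream Runx1KO-induced region, chr19:44814581-44814880, forward strand: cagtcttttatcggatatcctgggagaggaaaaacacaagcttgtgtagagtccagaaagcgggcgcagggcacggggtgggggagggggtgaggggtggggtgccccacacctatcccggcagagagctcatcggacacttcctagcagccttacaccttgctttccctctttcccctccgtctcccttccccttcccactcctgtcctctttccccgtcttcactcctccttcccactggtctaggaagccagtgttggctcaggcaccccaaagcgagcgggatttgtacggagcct
Pax8 upstream Runx1KO-induced region, chr2:24335409-24335708, reverse strand: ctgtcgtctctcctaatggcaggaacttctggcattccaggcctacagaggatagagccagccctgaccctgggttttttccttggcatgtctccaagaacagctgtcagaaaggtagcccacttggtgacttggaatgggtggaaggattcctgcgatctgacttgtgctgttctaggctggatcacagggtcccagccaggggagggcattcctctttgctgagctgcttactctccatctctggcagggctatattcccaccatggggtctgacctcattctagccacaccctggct

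A Runx core stood once in the Pou3f3, Pax8, Emx2 and Lhx1 windows and at 2 places in the Pax2 peak window. In the Pou3f3 window the TGTGGT began at base 214, counted from the 5′ end of the window, and in the Pax8 window at base 140. The shown Tfcp2l1 promoter held no Runx core and 2 copies of CAGGTG, starting at base 81 and, in reverse, at base 161. This moved window ended inside the peak, chr1:120524423-120524582, and the copy at base 81 lay upstream of the peak. The downstream end of the peak is not shown. The lack of a Runx core in this window therefore does not compare with the shares below, which count windows centred on each peak. Neither Runx1KO-induced window held either motif. Over all windows of the same length, 46.8% of 9977 Runx1 peaks and 39.4% of 8741 Runx1-dependent regions held a Runx core, the first over 200 and the second over 300 bases. A Zeb-type E-box stood in 16.4% of the Runx1 peak windows and in 62.7% of 9427 Runx1KO-induced windows of 300 bases. A match is a match of letters and does not show that a factor bound there.

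The order of the factors by TPM, a scale that accounts for gene length, was Pax2, Pax8, Emx2, Tfcp2l1, Lhx1, Pou3f3, Gata3 and Hnf4a in control cells. Every library of one gene lay apart from every library of the next in that order. Pax2, at 313 TPM, stood above 95.6% of the 12546 genes with a control mean of at least 1 TPM, and Pax8, at 199.8 TPM, above 92.3%. Lhx1 stood above 31.8% of them and Pou3f3 above 10.1%. In Runx1KO cells Tfcp2l1 and Lhx1 overlapped, at 12.5 and 12.1 TPM. In ZebDKO cells Lhx1, at 14.6 TPM, was above Tfcp2l1, at 7.63 TPM, in every library.

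**Figure D1:**
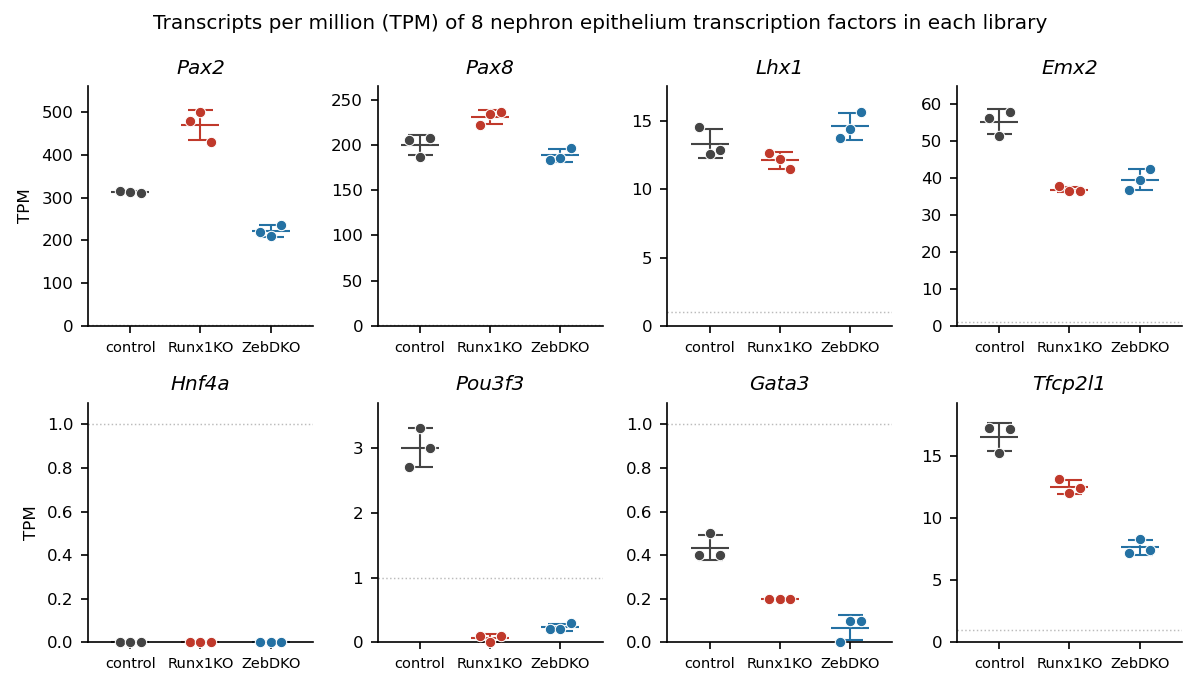
Level of each factor in TPM (vertical axis, from 0, a scale of its own in each panel) in the 3 control, 3 Runx1KO and 3 ZebDKO libraries. Points are libraries, the long bar is the mean, whiskers are the SD and the dotted line marks 1 TPM. Pax2 was highest in Runx1KO, Pou3f3 was above 1 TPM in control libraries only, and Hnf4a was at 0 throughout.

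Fold changes were tested with limma across all genes at 1 TPM or more in at least 3 of the 6 libraries compared, on log2(TPM + 1), with Benjamini-Hochberg adjusted p. A gene past the test had an adjusted p under 0.05, and a called gene had in addition changed by over 2-fold on that scale, which understates the change of low genes. Each group held 3 cultures, so the p-values measure the spread between cultures. The tables hold no counts, so depth per gene is unknown and no counting interval was given. The libraries were alike, with a Pearson r of 0.994 to 0.996 within groups and 12541 to 12697 genes at 1 TPM or more. TPM is given for whole genes, so the loss of an exon cannot be read from it. Runx1 was at 17.4 ± 1.61 TPM (SD, n = 3) in control, 29.6 ± 0.987 in Runx1KO and 10.1 ± 0.608 in ZebDKO cells. The ZebDKO log2 fold change of Runx1 was −0.73 (limma adjusted p = 8.33e-05). Zeb1 was at 15 ± 0.709 in control and 16.1 ± 1.1 in ZebDKO cells, and Zeb2 fell from 5.2 ± 0.3 to 1.7 ± 0.1 in ZebDKO cells (limma adjusted p = 5.2e-06). In Runx1KO cells Zeb1 was at 0.167 ± 0.0577 TPM and Zeb2 at 0.2 ± 0 TPM.

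The labelled tissue and other cell types were checked by marker lists. Of 11 markers of metanephric mesenchyme and nephron progenitors, 5 were at 1 TPM or more in control cells, and Six2 and Hoxd11, the first a defining factor of nephron progenitors, were listed at 0 there. The summed level of that list was 360.0 to 367.4 TPM in control, 283.8 to 285.9 TPM in Runx1KO and 398.8 to 409.4 TPM in ZebDKO libraries. Of these 5, Osr1 was at 64.1 to 70.9, 0.3 to 0.5 and 17.1 to 18.9 TPM in the same order of groups. Gdnf was at 11.4 to 13.6, 0.1 and 38.6 to 41.4 TPM. Hoxa11, the largest part of each sum, was at 212.4 to 217.4, 209.2 to 216.6 and 288.4 to 296.3 TPM. Sall1 was at 49.5 to 53.7, 62.3 to 68.6 and 35.6 to 38.7 TPM. Eya1 was at 15.9 to 16.6, 5.4 to 6.1 and 16.9 to 17.1 TPM, so the list did not move as 1. The podocyte marker Nphs1 was at 0 in every library, while Podxl was at 46.9 to 49.5, 85.2 to 89.7 and 31.0 to 35.2 TPM and Synpo at 34.3 to 41.7, 9.1 to 11.5 and 19.3 to 20.3 TPM. The endothelial marker Kdr was at 0 in control and Runx1KO libraries, and the 4 endothelial markers summed to 2.9 to 4.6, 1.0 to 1.3 and 3.6 to 5.8 TPM, mostly Cdh5. The summed level of 6 renal stroma markers was 168.7 to 181.3 TPM in control, 68.9 to 76.7 TPM in Runx1KO and 120.4 to 121.7 TPM in ZebDKO libraries. Most of it was Foxd1, at 88.6 to 97.0, 58.4 to 65.1 and 56.2 to 58.9 TPM, and Ntn1, at 75.5 to 80.5, 7.6 to 9.3 and 58.9 to 61.0 TPM. Col1a1 was at 1.7 to 2.3, 1.9 to 2.0 and 3.3 to 3.5 TPM, and Meis1 and Pdgfra were under 1 TPM in every library. The summed level of 3 leukocyte markers was 2.5 to 3.2 TPM in control, 30.9 to 32.7 TPM in Runx1KO and 26.1 to 29.2 TPM in ZebDKO libraries. It came mostly from Cd68 in control and from Csf1r in the knockouts, while the defining marker Ptprc was at 0 in every library. The part of the marker lists in the results was not tested. In bulk RNA, fewer cells with a transcript and less transcript per cell cannot be told apart.

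The scale of the ZebDKO comparison needs a word before the factors. The median log2 fold change over all genes tested was −0.06 for Runx1KO against control, −0.18 for ZebDKO against control and 0.15 for Runx1KO against ZebDKO. Median-ratio scaling, which sets the median near 0, took the share of lower among genes past the test in ZebDKO from 66.1% to 49.7%, and among called genes from 49.3% to 36.0%. In Runx1KO against ZebDKO it took these shares from 37.3% to 50% and from 41.7% to 53.6%. For the factors tested in ZebDKO against control, values after median-ratio scaling are given below.

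Pax2 was the most abundant of the factors and moved in opposite directions in the knockouts. Control libraries held 315.7, 313.7 and 310.2 TPM, Runx1KO libraries 478.1, 501 and 430.9 TPM, and ZebDKO libraries 220.4, 209.5 and 236.3 TPM. No library of one group overlapped another group. Runx1KO cells had 1.5 times the control mean, a log2 fold change of 0.58 (SE 0.0530, 95% interval 0.46 to 0.71, limma adjusted p = 6.21e-05). ZebDKO cells had 0.709 times the control mean, a log2 fold change of −0.50 (SE 0.0444, interval −0.60 to −0.39, limma adjusted p = 3.3e-05), and −0.30 after median-ratio scaling.

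Pax8, the close relative of Pax2, changed far less. Its levels were 205.2, 186.8 and 207.5 TPM in control, 222.4, 234.6 and 236.7 TPM in Runx1KO, and 183.0, 185.8 and 196.3 TPM in ZebDKO libraries. The Runx1KO libraries lay above all others, whereas ZebDKO and control overlapped. The Runx1KO log2 fold change was 0.21 (SE 0.0470, interval 0.10 to 0.32, limma adjusted p = 0.00561). That of ZebDKO was −0.08 (SE 0.0488, interval −0.20 to 0.03, limma adjusted p = 0.15) and turned to 0.11 after median-ratio scaling, so no direction is given.

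Lhx1 differed little from control in either knockout. Its levels were 14.6, 12.6 and 12.9 TPM in control, 12.7, 12.2 and 11.5 TPM in Runx1KO, and 13.8, 14.4 and 15.7 TPM in ZebDKO libraries. Both knockouts overlapped the control libraries but not each other. The log2 fold changes were −0.13 in Runx1KO (interval −0.29 to 0.03, limma adjusted p = 0.128) and 0.12 in ZebDKO (interval −0.05 to 0.29, limma adjusted p = 0.156). The ZebDKO value passed the test at 0.31 after median-ratio scaling (adjusted p = 0.00589), at 0.33 after quantile normalization (0.00503) and at 0.18 without control replicate 1 (0.0481).

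Emx2 fell in both knockouts. The levels were 56.3, 51.5 and 58.0 TPM in control, 37.8, 36.4 and 36.6 TPM in Runx1KO, and 36.9, 39.4 and 42.5 TPM in ZebDKO libraries. Every knockout library lay below every control library, and the knockouts overlapped. The log2 fold change was −0.57 in Runx1KO (SE 0.0487, interval −0.68 to −0.45, limma adjusted p = 4.58e-05). It was −0.47 in ZebDKO (SE 0.0650, interval −0.62 to −0.32, limma adjusted p = 0.000328) and −0.28 after median-ratio scaling.

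The divergent noncoding gene at the Emx2 start, Emx2os, was looked at after the values were seen, as were Lhx1os, Pantr1 and Pantr2 below. Emx2os was at 3.0, 2.1 and 2.8 TPM in control, 0.9, 0.4 and 0.4 TPM in Runx1KO, and 1.1, 1.0 and 1.0 TPM in ZebDKO libraries. It lay below control in all 6 knockout libraries, with log2 fold changes of −1.22 in Runx1KO (limma adjusted p = 0.000387) and −0.83 in ZebDKO (0.00031), or −0.71 after median-ratio scaling. Lhx1os, which lies beside Lhx1, was at 3.6, 4.6 and 3.1 TPM in control, 1.5, 3.7 and 5.6 TPM in Runx1KO, and 9.3, 10.3 and 9.4 TPM in ZebDKO libraries. It overlapped control in Runx1KO and lay above it in ZebDKO, with a log2 fold change of 1.17 (limma adjusted p = 5.36e-05), or 1.34 after median-ratio scaling. Use of strand in counting is not given in the sources used here, so reads shared by a gene and an antisense partner cannot be told apart.

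Tfcp2l1 fell in both knockouts, further in ZebDKO. It was at 17.2, 15.2 and 17.1 TPM in control, 13.1, 12 and 12.4 TPM in Runx1KO, and 7.2, 8.3 and 7.4 TPM in ZebDKO libraries. The groups formed a descending order with no overlap. The Runx1KO log2 fold change was −0.37 (SE 0.0614, interval −0.52 to −0.23, limma adjusted p = 0.00127). In ZebDKO it was −1.02 (SE 0.0730, interval −1.19 to −0.85, limma adjusted p = 1.04e-05), just past the 2-fold limit. It dropped inside that limit after median-ratio scaling (−0.84), after quantile normalization (−0.81), and without control replicate 1 (−0.99), control replicate 3 (−0.99) or ZebDKO replicate 1 (−0.98).

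Pou3f3 was low in control cells and close to 0 in both knockouts. It was at 2.7, 3.3 and 3.0 TPM in control, 0.1, 0.0 and 0.1 TPM in Runx1KO, and 0.2, 0.2 and 0.3 TPM in ZebDKO libraries. All knockout libraries lay below all control libraries. The log2 fold changes were −1.91 in Runx1KO (SE 0.0975, limma adjusted p = 3.29e-06) and −1.70 in ZebDKO (SE 0.0968, limma adjusted p = 3.55e-06), the latter −1.60 after median-ratio scaling. With a pseudocount of 0.1 they were −4.28 and −3.23, so the size rests on the pseudocount. Pou3f3 passed the filter on low values only through the control libraries, so it had to differ, and it was not tested between the knockouts. Pantr1 and Pantr2, noncoding genes beside Pou3f3, were listed at 0 in all 6 knockout libraries. In control libraries Pantr1 was at 2.6, 0.3 and 1.2 TPM and Pantr2 at 0.0, 1.2 and 1.8 TPM, a wide spread for 3 cultures.

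Hnf4a and Gata3 stayed under 1 TPM throughout and were not tested. Hnf4a was listed at 0 in all 9 libraries. Gata3 was at 0.4, 0.5 and 0.4 TPM in control, 0.2 in each Runx1KO library, and 0.0, 0.1 and 0.1 TPM in ZebDKO libraries. The Gata3 groups did not overlap, but values this low are given to 1 decimal place only and no fold change is drawn from them. In a second deposited TPM table, which holds the control and Runx1KO libraries alone, Gata3 reached at most 0.85 TPM and Hnf4a was again at 0. Control means of the other 6 factors in that table were 0.436 to 0.530 of those given above, where the median gene stood at 0.635, so levels depend on the table while the order of Pax2, Pax8, Emx2, Tfcp2l1, Lhx1 and Pou3f3 was the same.

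**Figure D2:**
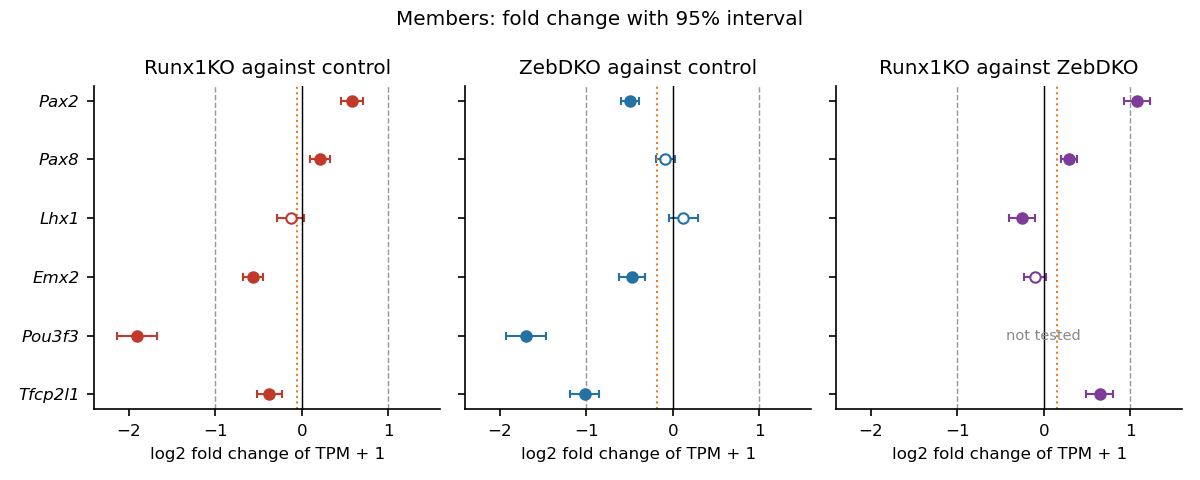
Log2 fold change of TPM + 1 (horizontal axis) with 95% interval for the 6 tested factors in Runx1KO against control, ZebDKO against control and Runx1KO against ZebDKO. Filled points passed an adjusted p of 0.05, dashed lines mark 2-fold and the orange dotted line is the median over all genes tested (−0.06, −0.18 and 0.15). Pax2 lies on opposite sides of 0 in the first pair of panels and Pou3f3 lies farthest to the left in both.

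Counted together for Runx1KO against control, 2 of the 6 tested factors were higher past the test (Pax2 and Pax8), against 30.4% of the 13067 genes tested, and 3 were lower (Emx2, Tfcp2l1 and Pou3f3), against 40.1%. Only Pou3f3 was called lower, against 5.10% of genes, and none was called higher, against 7.91%. For ZebDKO against control, 4 of 6 were lower past the test (Pax2, Emx2, Tfcp2l1 and Pou3f3), against 52.5% of 12974 genes, and none was higher, against 26.9%. After median-ratio scaling the same 4 were lower and Lhx1 was higher, where 4885 of 12925 genes were lower and 4949 higher. Without that scaling, Tfcp2l1 and Pou3f3 were called lower, against 7.28% of the 12974 genes, and none was called higher, against 7.49%. With it, Tfcp2l1 was at −0.84, inside the 2-fold limit, and was no longer called. The 2 comparisons share the control libraries. The median log2 fold change of the tested factors was −0.25 in Runx1KO and −0.48 in ZebDKO, beside −0.06 and −0.18 over all genes, and it includes Pou3f3, which passed the filter through the control libraries alone.

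Runx1KO and ZebDKO cells were compared directly, a contrast without control libraries. Pax2 was 2.12 times as high in Runx1KO cells, a log2 fold change of 1.08 (SE 0.0644, interval 0.93 to 1.23, limma adjusted p = 4.03e-06), which came to 0.92 and inside the 2-fold limit after median-ratio scaling. Tfcp2l1 was higher by 0.65 (SE 0.0650, limma adjusted p = 5.85e-05) and Pax8 by 0.29 (SE 0.0378, limma adjusted p = 0.000221). Lhx1 was lower, at −0.25 (SE 0.0618, limma adjusted p = 0.00686). After median-ratio scaling and after quantile normalization, Tfcp2l1 stood at 0.50 and 0.39, Pax8 at 0.14 and 0.34, and Lhx1 at −0.40 and −0.47, all past the test. Emx2 differed by −0.10 (interval −0.22 to 0.03, limma adjusted p = 0.136), but passed the test at −0.25 after median-ratio scaling (adjusted p = 0.00337), −0.23 after quantile normalization (0.00419) and −0.14 without ZebDKO replicate 1 (0.0318). Thus 3 of 5 tested factors were higher past the test, against 50.2% of 13071 genes, and 1 was lower, against 29.8%. Pax2 was called higher, against 9.20%, and none was called lower, against 6.59%.

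Chromatin lists are given as the study deposited them, with no replicate values, so they are described without a test. Of 22227 table genes with an mm9 position, 55.7% had an ATAC-seq region within 1 kb of an annotated start, and so did 6 of the 8 factors. The exceptions were Hnf4a and Pou3f3. At these 6, the region at the start was Runx1-independent, meaning open in both control and Runx1KO cells. No factor had a Runx1-dependent region at its start, against 3.28% of genes, or a Runx1KO-induced one, against 4.80%. At Gata3 the region lay at an inner annotated start, with its middle 10.8 kb inside the gene, and none lay at the outer start.

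Runx1 ChIP-seq peaks of control cells lay within 1 kb of a start at Pax2, Lhx1, Emx2 and Tfcp2l1, 4 of the 8, against 11.8% of genes. Runx2 peaks of control cells did so at 6 of 8, namely these plus Pax8 and Gata3, against 28.5%. The strongest start peak was that of Tfcp2l1 at chr1:120524423-120524582, 0.02 kb upstream of the start, with a fold enrichment of 6.71. Runx2 was listed over it in both lines, at 5.37 in control and 5.81 in Runx1KO. At Lhx1 the Runx1 peak lay at chr11:84336156-84336468, 2.61 kb inside the gene at an inner start, with a fold of 6.37, and Runx2 stood over it at 7.76 and 6.45. At Emx2 the peak lay at chr19:59532621-59532762, 0.49 kb upstream and inside an exon of Emx2os, with a fold of 4.09. At Pax2 the peak lay 1.01 kb inside the gene over an untranslated exon, with a fold of 3.43 and no Runx2 peak over it. The Tfcp2l1, Lhx1 and Emx2 peaks sat inside Runx1-independent regions, and the Pax2 peak overlapped one and ran past its end.

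Pax8 carried the highest Runx1 fold of the set, away from its start. The peak at chr2:24308774-24309125, in an intron 22.2 kb inside the gene, had a fold of 7.01, beside a median of 4.45 over 10187 Runx1 peaks. It lay in a Runx1-dependent region, chr2:24308579-24309210. Runx2 was listed at the same place in control cells at a fold of 7.16 and in Runx1KO cells at 5.08. Pax8 RNA was higher in Runx1KO cells, as given above. The nearest Runx1KO-induced region was 4.44 kb upstream of Pax8, and 2 more lay 69.8 kb downstream and 88.5 kb upstream of the start.

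Pou3f3 was the only factor whose listed ATAC-seq regions within 100 kb were all Runx1-dependent. The nearest, chr1:42752124-42752900, had its middle 1.48 kb upstream of the start, just outside the 1 kb window. The other 2, at 17.4 and 17.9 kb, overlapped each other. No Runx2 peak of either line was listed within 100 kb, and 2 Runx1 peaks lay 64.4 and 49.8 kb upstream, at folds of 5.25 and 4.38, outside any listed ATAC-seq region.

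Pax2 had 4 Runx1 peaks within 100 kb, at 5.18 kb upstream and at 1.01, 10.1 and 38.8 kb inside the gene, with folds of 3.43 to 4.11. It also had 12 Runx1-independent, 3 Runx1KO-induced and 1 Runx1-dependent region. The induced regions lay 15.8, 46.9 and 69.6 kb upstream. Tfcp2l1 had 3 Runx1-dependent regions, 2 of them in its introns at 33.2 and 44.4 kb, and Emx2 had 3, none nearer than 33.01 kb. Hnf4a, listed at 0 TPM, had 4 Runx1KO-induced regions, 2 of them within the gene at 19.02 and 45.84 kb.

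Within 100 kb, 7 of the 8 factors had a Runx1-dependent region, against 46.0% of genes, and 7 had a Runx1 peak, against 62.8%. Gata3 had neither. A Runx1KO-induced region was listed for 4 of 8 (Pax2, Pax8, Hnf4a and Gata3), against 56.8%. The series holds ATAC-seq and ChIP-seq libraries of control and Runx1KO cells only, with none of ZebDKO cells, so the chromatin values bear on Runx1KO alone.

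**Figure D3:**
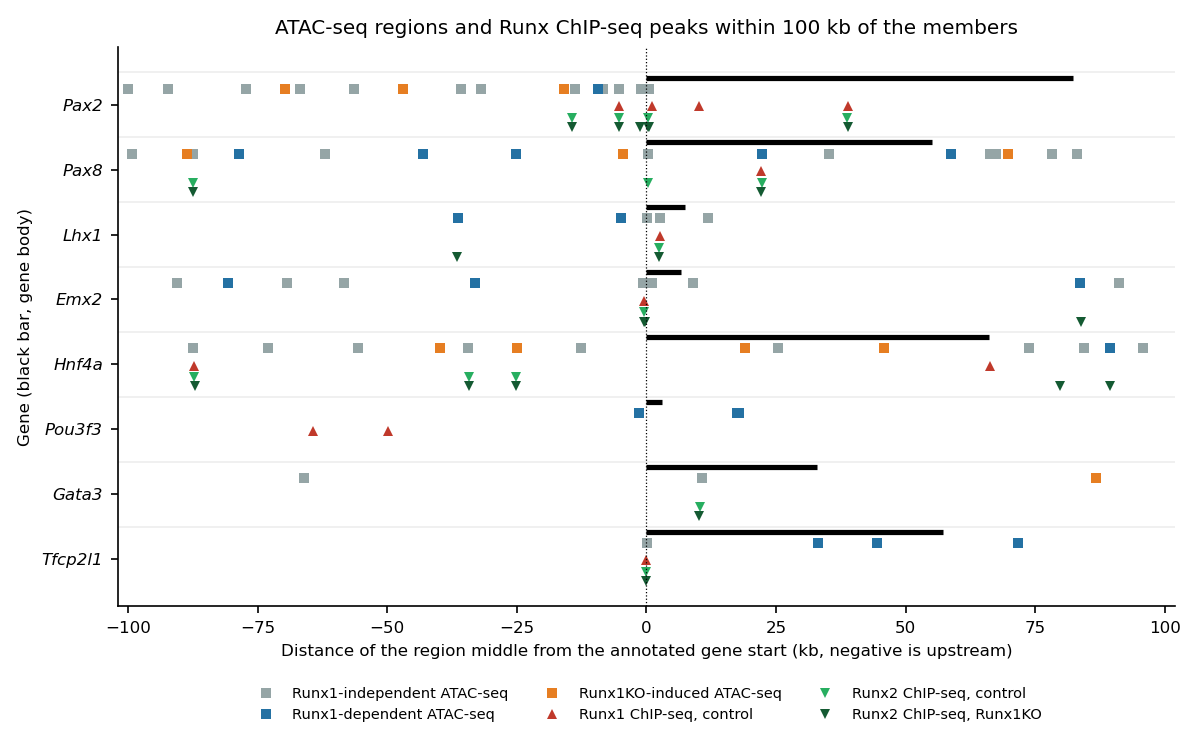
Distance of each listed region's middle from the annotated gene start (horizontal axis, kb, negative upstream) for the 8 factors, with ATAC-seq regions as squares, Runx peaks as triangles and the gene body as a black bar. Runx1-independent regions sit at the starts of Pax2, Pax8, Lhx1, Emx2 and Tfcp2l1, and the regions listed at Pou3f3 are all Runx1-dependent.

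For each factor at 1 TPM or more, the genes most like it over the 9 libraries were named by Pearson r of log2(TPM + 1) among 13373 genes. These r values describe 3 groups of 3 libraries, which fix most of the pattern. For Pax2 they were Taco1 (r = 0.997), Zcchc2 (0.996) and Nectin1 (0.995). Nectin1, a cell adhesion molecule, stood at 3.87, 10.4 and 1.6 TPM in control, Runx1KO and ZebDKO cells. For Emx2 they were 4632404H12Rik (0.994), Cenpq (0.991) and Lmo4 (0.991). Lmo4, a LIM-only cofactor, stood at 57.3, 37.9 and 40.1 TPM. For Pou3f3 they were Ptpn22 (0.999), Acadm (0.998) and Ak5 (0.998), and for Tfcp2l1 Insr (0.998), Lman1 (0.998) and Gpalpp1 (0.997). Pax8 and Lhx1 had weaker matches, with P4ha3 (0.980), Fam131a (0.979) and Hacd4 (0.978) for Pax8 and Tnfrsf23 (0.990), Smyd2 (0.936) and Cyp2t4 (0.925) for Lhx1.

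The paralogs of the 8 factors and their cofactors were counted as lists. In these and the next lists a gene low in control cells, such as Pax5, Dll1 or Ggt1, entered the test through its knockout libraries and so had to differ. The same holds the other way for a gene under 1 TPM in a knockout, which entered through the control libraries alone. Examples are Gata6 in each knockout and Lef1 and Lrp2 in Runx1KO. The 2 paralogs called lower in Runx1KO were of this kind. Of 21 paralogs, 9 were tested in Runx1KO, of which 1 was called higher and 2 lower, and 9 in ZebDKO, of which 1 was called higher and 3 lower. To set beside these and the next counts, 7.91% of all genes tested were called higher and 5.10% lower in Runx1KO. In ZebDKO the shares were 7.49% and 7.28%. Gata6, a relative of Gata3, fell from 7.7 ± 0.265 TPM in control to 0.0333 ± 0.0577 in Runx1KO and 0.467 ± 0.153 in ZebDKO cells (limma adjusted p = 1.04e-07 and 5.14e-07). Pax5, a relative of Pax2 and Pax8, rose from 0.0667 ± 0.0577 to 2.6 ± 0.1 TPM in Runx1KO cells (limma adjusted p = 2.97e-06). Of 11 cofactors, 8 were tested, 7 of them lower past the test in Runx1KO, against 40.1% of all genes, and 5 in ZebDKO, against 52.5%, with none higher in either. Ssbp2, a partner of the LIM-domain binding protein that Lhx1 uses, was called lower in both, at 12.6 ± 0.416 TPM in control, 2.07 ± 0.208 in Runx1KO and 5.1 ± 0.265 in ZebDKO cells. The median log2 fold change of the cofactors was −0.43 in Runx1KO and −0.36 in ZebDKO, beside −0.06 and −0.18 over all genes tested.

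Other nephron transcription factors moved both ways. Of 25 listed, 12 were under 1 TPM in all libraries. In Runx1KO 1 of 11 tested was called higher and 3 lower, and in ZebDKO 3 of 13 higher and 2 lower. Irx1, an Iroquois factor of the intermediate nephron, fell from 65.7 ± 2.74 TPM in control to 13.5 ± 0.529 in Runx1KO and 22.1 ± 0.608 in ZebDKO cells (limma adjusted p = 4.04e-08 and 1.44e-07). Esrrb was listed at 0 in control and reached 2.53 ± 0.153 TPM in ZebDKO cells.

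Genes of the renal vesicle and of nephron induction, the step that Pax2, Pax8 and Lhx1 take part in, were called higher more often than lower. Of 14 listed, Fgf8, Wnt9b, Cdh4, Cdh1 and Dkk1 were under 1 TPM in all libraries. In Runx1KO 5 of the 9 tested were called higher and 1 lower, against 7.91% and 5.10% of all genes. In ZebDKO 7 were higher and 1 lower, against 7.49% and 7.28%. These counts include Dll1, which entered the test through the knockout libraries and could only be higher. The gene called lower in Runx1KO was Lef1, which entered through the control libraries and could only be lower. The list's median log2 fold change was 1.40 in Runx1KO and 1.73 in ZebDKO, beside −0.06 and −0.18 over all genes tested. Cdh16, kidney-specific cadherin, rose from 16.9 ± 0.529 TPM in control to 369 ± 4.97 in Runx1KO and 189 ± 2.08 in ZebDKO cells (limma adjusted p = 1.21e-09 and 2.51e-09). Dll1, a Notch ligand of the renal vesicle, rose from 0.667 ± 0.321 TPM to 20.5 ± 0.862 and 8.8 ± 0.624 (limma adjusted p = 7.56e-07 and 3.66e-06). Lef1, a Wnt effector, fell from 9 ± 0.529 to 0.133 ± 0.0577 TPM in Runx1KO (limma adjusted p = 1.02e-07) and to 5.97 ± 0.666 in ZebDKO, where it was past the test (0.000731) but not called. Wnt4, the inducer of the renal vesicle, was singled out after its values were seen. It was at 21.5 ± 0.643 TPM in control, 34.3 ± 0.346 in Runx1KO and 2.63 ± 0.231 in ZebDKO cells (limma adjusted p = 4.79e-06 and 7.42e-08 against control), the same order of groups as Pax2.

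Of 13 genes of the loop of Henle and distal tubule, where Pou3f3 acts, 11 were under 1 TPM in all libraries, and of the 2 tested none was called in either knockout. Of 16 proximal tubule genes, the segment of Hnf4a, 8 were under 1 TPM throughout. Aqp1, a water channel, and Slc5a2, a glucose transporter, were named after their values were seen. Aqp1 was at 451 ± 20.04 TPM in control, 603 ± 19.2 in Runx1KO and 329.9 ± 15.5 in ZebDKO cells (limma adjusted p = 7.12e-05 and 6.23e-05), and Slc5a2 at 21 ± 1.56, 15.4 ± 2.16 and 15.8 ± 0.625 TPM (0.00763 and 0.000854). In Runx1KO 1 of 7 tested was called higher and 2 lower, and in ZebDKO 2 of 8 higher and none lower. The genes called higher, Ggt1 in each knockout and Slc34a1 in ZebDKO, entered the test through the knockout libraries and could only be higher. Lrp2 in Runx1KO entered through the control libraries and could only be lower. Dab2, an endocytic adaptor, fell from 24.8 ± 1.25 TPM in control to 4.67 ± 0.0577 in Runx1KO (limma adjusted p = 7.04e-08) and was at 12.9 ± 0.693 in ZebDKO. Lrp2, which encodes megalin, was at 2.6 ± 0.436 TPM in control and listed at 0 in Runx1KO libraries. Ggt1, gamma-glutamyl transferase, rose from 0.1 ± 0.1 TPM to 5.73 ± 0.551 and 15.5 ± 0.850 (limma adjusted p = 9.37e-07 and 5.95e-08).

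Ureteric bud and collecting duct genes, the compartment of Emx2, Gata3 and Tfcp2l1, were mostly not detected at 1 TPM. Of 18 listed, 11 were under 1 TPM throughout, and the called ones were 5 of 6 tested in Runx1KO and 4 of 5 in ZebDKO, all higher. Over all genes tested, 7.91% were called higher in Runx1KO and 7.49% in ZebDKO. Wnt11, Aqp3 and Scnn1a in Runx1KO and Scnn1a and Scnn1g in ZebDKO were under 1 TPM in control cells and entered the test through the knockout libraries, so they could only be higher. With a filter of 5 TPM, 3 genes were called in each knockout, all higher. Of these, Wnt7b and Elf3 were above 5 TPM in control cells as well. Hsd11b2, at 1.3 TPM in control cells, passed that filter through the knockout libraries alone, so it too could only be higher. Wnt7b, a ligand of the collecting duct epithelium, rose from 13.3 ± 0.231 TPM in control to 63 ± 1.02 in Runx1KO and 122 ± 2.35 in ZebDKO cells (limma adjusted p = 1.32e-08 and 3.73e-09). Elf3, an epithelial ETS factor, rose from 32 ± 2.86 TPM to 121 ± 2.26 and 128 ± 6.26 (limma adjusted p = 3.09e-07 and 3.24e-07). Hsd11b2, the enzyme that shields the mineralocorticoid receptor, rose from 1.3 ± 0.173 TPM to 8.83 ± 1.33 and 21.4 ± 2.06 (limma adjusted p = 4.08e-06 and 1.2e-07). Emx2 and Tfcp2l1, of the same compartment, fell in both knockouts as given above, and Gata3 was not tested.

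**Figure D4:**
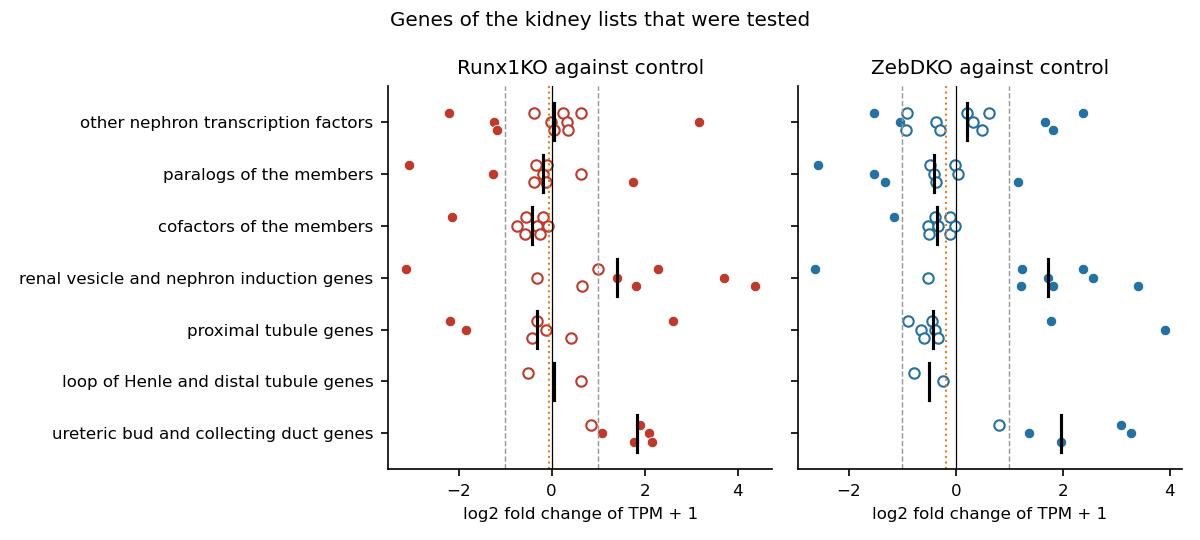
Log2 fold change of TPM + 1 (horizontal axis) of each tested gene in the kidney lists for Runx1KO against control and ZebDKO against control. Filled points were called at 2-fold and an adjusted p of 0.05, black bars are list medians, dashed lines mark 2-fold and the orange dotted line is the median over all genes tested. The renal vesicle and collecting duct lists lie mostly to the right, with medians of 1.40 and 1.83 in Runx1KO.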

How the data were processed

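Reads of all assays were trimmed with Trim Galore and aligned to mm9 with STAR, and duplicate reads were removed, which can lower the values of the most abundant genes. Gene reads were counted by the authors with featureCounts 1.6.2 on RefSeq genes and deposited as TPM, given to 1 decimal place in the table of 9 libraries used here. A second deposited TPM table of 6 libraries served as an alternative. Peaks were called by the authors with MACS2 at a q-value limit, on combined replicates for ChIP-seq with peaks also found by Runx1 ChIP-seq of Runx1KO cells removed, although peak names in each list carry the name of 1 library. The deposited peak lists give a fold ratio over background and a −log10 q-value. The ATAC-seq lists also hold a fold change and a p-value of Runx1KO against control made by the authors, which were not used.

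The authors tested counts with DESeq2 1.26.0. Here log2(TPM + 1) values were fitted with limma 3.58.1 in R 4.3.3, with a trended prior, for genes at 1 TPM or more in at least 3 of 6 libraries. The procedure was tested on simulated data. Peaks were matched to GENCODE vM1 gene models on mm9, where Tfcp2l1 is named Tcfcp2l1, and 22227 of 24953 table symbols had a single position. Groups came from the sample labels. The named genes were the 8 factors, up to 3 called genes of largest change per list, the 3 genes most like each factor, and the targeted genes, and others are stated as chosen after their values were seen. A few named items are not reported here. The factors and gene lists were chosen with earlier results of these data known. Alternatives tried were other pseudocounts, filters, scalings, fold limits and start windows, a replicate block, a joint fit and leaving out each library.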

Additional observations from a re-analysis of the deposited data

Results flagged for a closer look

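The effects of the knockouts against the same control libraries differed by a direct test for 4 factors. Runx1KO exceeded ZebDKO by 1.08 on the log2 scale for Pax2, by 0.65 for Tfcp2l1 and by 0.29 for Pax8, and stood at −0.25 for Lhx1 (limma adjusted p = 4.03e-06, 5.85e-05, 0.000221 and 0.00686). Each was in the stated direction in every pair of libraries from the 2 groups of 3. Against the control libraries Pax2 moved in opposite directions, Tfcp2l1 fell in both knockouts, and Lhx1 overlapped control in both. Of the 13071 genes tested, 50.2% were higher and 29.8% lower past the same test, so such a difference was common. Groups of 3 libraries were too small for an outlier test.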

How the results depend on the processing

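Of 259 alternative values for fold changes of the 6 tested factors, 251 kept their direction and their side of an adjusted p of 0.05, and 7 newly passed it (Lhx1, Pax8 and Emx2). Changes at the 2-fold limit are in the counts of called factors that follow. The Pax8 change in ZebDKO reversed to 0.11 after median-ratio scaling, and Lhx1os in Runx1KO reversed to 0.24 without Runx1KO replicate 1, in a range of −0.46 to 0.24 over libraries left out. The count of factors called in Runx1KO against control, 1 as reported, was 0 with a filter of 5 TPM, which removes Pou3f3, and 3 with a 1.3-fold limit (Emx2, Pax2 and Pou3f3), and stayed at 1 when any library was left out. In ZebDKO against control the count of 2 became 1 with a filter of 5 TPM, after median-ratio scaling and after quantile normalization, 4 with a 1.3-fold limit, and 1 to 2 when libraries were left out. In Runx1KO against ZebDKO the count of 1 became 0 after median-ratio scaling and 2 with a 1.3-fold limit. With an absence limit of 0.5 TPM, 1 factor (Hnf4a) was absent in place of 2. Of 644 counts of called list genes, 36 moved by over 1.5 times, 11 of them with the filter of 5 TPM. Labels number the cultures 1 to 3 in each group, but same-numbered cultures did not deviate together (r from −0.0495 to 0.0399), so the numbers were not taken as pairs. With a replicate block the counts of called factors stayed at 1, 2 and 1. Depth per gene is unknown from TPM, which limits what the low values of Gata3 and Pou3f3 can show.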
